A study of Mus musculus with 9 samples.

Results

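Matricellular proteins are secreted into the extracellular matrix, where they modulate how cells attach, migrate and respond to growth factors rather than mainly bearing load. They are generally low in resting adult tissue and come up in development, injury and fibrosis, and in muscle several of them are concentrated at the junction with tendon. The genes described here were chosen by name as the matricellular proteins of the series together with the tenascins, the thrombospondins and fibronectin. They number 10, of 587 genes in the deposited table of quadriceps after transverse aortic constriction (TAC) and of 24537 gene names in the deposited table of sham quadriceps against sham heart. All 10 have a row in both tables, and all 10 passed the filter on low counts in both (more than 5 counts in at least 2 libraries).

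The libraries came from C57Bl6 mice by the series' design text (male C57Bl/6JCrl by the study's methods) that underwent TAC or a sham operation at 8 weeks of age by the labels, with tissue taken 12 weeks later. TAC ties the aortic arch against a needle, which leaves the left ventricle under pressure overload. The 9 RNA sequencing libraries comprise 3 of sham quadriceps, 3 of TAC quadriceps and 3 of sham heart, and there is no TAC heart library. The mice carried no transgene or deletion, and the sham quadriceps libraries serve both comparisons, so that the results of the 2 share these controls. One TAC library is numbered 4 in the table, a number that no label carries, and it is called TAC library 4. Library totals, recovered from counts, lengths and RPKM values (counts scaled to transcript length and to library total), ranged from 23383452 to 38382751 over sham muscle and heart. TAC libraries 1 and 2 were deeper, at 48614494 and 48999600. The skeletal muscle fiber markers Acta1, Ckm, Myh4, Myh1 and Myh2 were all higher in sham quadriceps than in heart, and the cardiomyocyte markers Myh6, Actc1, Tnnt2 and Nppa were all lower. In the TAC table, which holds secreted-protein genes, Ckm is the fiber marker listed, at normalized counts of 288265 to 471788 in sham and 428576 to 604226 in TAC muscle.

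Each gene is represented by 1 RefSeq transcript, the same in both tables. On the mouse build GRCm38 with the GENCODE vM21 annotation, Postn lies on chromosome 3 at 54361109 to 54391037, Tnc on chromosome 4 at 63959785 to 64047015, Tnxb on chromosome 17 at 34670535 to 34719815 and Spp1 on chromosome 5 at 104435118 to 104441050. Sparc lies on chromosome 11 at 55394500 to 55423183 and Fn1 on chromosome 1 at 71585520 to 71653200. Of the thrombospondins, Thbs1 lies on chromosome 2 at 118111876 to 118127133, Thbs2 on chromosome 17 at 14665500 to 14694235, Thbs3 on chromosome 3 at 89215180 to 89226837 and Thbs4 on chromosome 13 at 92751590 to 92794818. Genes on the opposite strand overlap Tnc (8030451A03Rik), Tnxb (Gm24389 and Cyp21a2-ps), Thbs1 (Gm29233), Thbs3 (Mtx1) and Fn1 (Apol7d), and Gm42793 overlaps Spp1 on its own strand. Since the use of strand in counting is not given in the sources used here, reads from these overlaps may not be told apart.

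In the comparisons below, Postn had the largest fall after TAC. Tnc and Thbs4 were called both higher in quadriceps than in heart and lower after TAC. The upstream sequences of Postn, Tnc and Thbs4, picked with their values in view, are shown here. Each is the 250 bases before the annotated start, from RefSeq on GRCm38.p6, at chr3:54360857-54361106 on the plus strand for Postn, chr4:64047016-64047265 on the minus strand for Tnc and chr13:92794819-92795068 on the minus strand for Thbs4. Capitals mark matches, on either strand, to any of 6 motifs: TATAAA (the TATA box), CCAAT (bound by NF-Y), GGGCGG (the core of a GC box), TGANTCA (the AP-1 motif), CATTCC (a TEAD motif) and CAGCTG (an E-box).
Postn: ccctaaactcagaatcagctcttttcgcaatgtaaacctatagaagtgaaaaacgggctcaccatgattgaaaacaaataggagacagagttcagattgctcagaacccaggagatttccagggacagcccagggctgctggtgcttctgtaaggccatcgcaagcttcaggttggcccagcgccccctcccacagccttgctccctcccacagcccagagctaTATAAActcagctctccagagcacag
Tnc: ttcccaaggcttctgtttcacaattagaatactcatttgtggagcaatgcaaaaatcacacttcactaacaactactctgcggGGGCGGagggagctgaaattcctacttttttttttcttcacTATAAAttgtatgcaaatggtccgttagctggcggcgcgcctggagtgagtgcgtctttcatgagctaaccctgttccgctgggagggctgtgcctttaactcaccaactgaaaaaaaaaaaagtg
Thbs4: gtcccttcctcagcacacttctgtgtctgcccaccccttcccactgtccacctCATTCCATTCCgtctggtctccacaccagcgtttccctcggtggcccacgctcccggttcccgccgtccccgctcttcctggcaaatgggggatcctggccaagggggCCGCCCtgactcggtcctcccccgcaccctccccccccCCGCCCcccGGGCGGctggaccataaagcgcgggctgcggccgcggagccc

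The Postn window holds TATAAA beginning 26 bases before the start, the Tnc window holds it 126 bases before the start with GGGCGG at 167, and the Thbs4 window holds no TATAAA. In Thbs4, GGGCGG or its complement begins 89, 51 and 42 bases before the start, and 2 copies of CATTCC, which share a base, begin 197 and 192 bases before it. Of 32851 RefSeq windows of this length, 12.4% hold TATAAA, 33.8% CCAAT, 32.7% GGGCGG, 6.75% TGANTCA, 12.6% CATTCC and 13.0% CAGCTG. Of the 8 genes with a window, TATAAA occurs in 3 (Postn, Tnc and Thbs2), GGGCGG in 3 (Tnc, Thbs3 and Thbs4) and CCAAT in Thbs2 and Thbs3. TGANTCA occurs in Tnxb and CAGCTG in Sparc, and Spp1 holds none of the 6. These matches are letters in a window and were not tested for binding.

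To ask how the matricellular genes differ between wasting and control muscle, counts were scaled by TMM over the listed genes and tested with edgeR's quasi-likelihood test, with p-values adjusted by the Benjamini-Hochberg method over all 586 genes tested. Transcripts of 5 of the 10 genes fell after TAC (Postn, Fn1, Tnc, Thbs4 and Thbs3), by 2.16-fold to 9.40-fold, and 0 rose. Of all 586 genes, 11.9% were called lower and 17.7% higher. These 70 lower and 104 higher calls became 35 and 25 without sham library 1, 48 and 35 without sham library 2, and 38 and 34 without sham library 3, where 3 of the 10 genes were called lower each time. With an unadjusted p under 0.05 the counts were 6 lower and 0 higher, as they were with DESeq2, and Spp1 is the sixth in each. Over all genes DESeq2 called 80 lower and 109 higher, and the counts at an unadjusted p are not given here. The median log2 fold change of the 10 was -1.25, against 0.03 over all genes tested. In 6 of the 10, the same 5 and Spp1, the groups did not overlap, each time with TAC below sham. Of all genes tested, 47.3% had groups that did not overlap in either direction, and the count of 6 is near that share. The share with TAC below sham over all genes was not computed. Since the table is a chosen part of the transcriptome, TMM centers the values on its genes. With library totals in place of TMM, in the 5 libraries that have one, the median over all genes moved to -0.63 and that of the 10 to -1.85, and 8 of the 10 were called lower. Over all genes, the split of 104 higher and 70 lower calls became 20 and 180 with library totals.

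Postn encodes periostin, a matrix protein of fibroblasts that binds collagen and integrins. Its normalized counts were 304, 68.7 and 275 in sham libraries 1 to 3 and 31.0, 25.4 and 12.0 in TAC libraries 1, 2 and 4. Every TAC library lay below every sham library, and sham library 2 stood well below the other 2 sham libraries. The log2 fold change was -3.23 (SE 0.60), or 9.40-fold lower, with an adjusted p of 0.00821 in edgeR's quasi-likelihood test, and it ranged from -3.66 to -2.93 as each library was left out. It was -2.40 in the libraries numbered 1 and 2 with the replicate number as a block. With limma on log2(RPKM + 1) it was -1.37, and the call was lost (adjusted p = 0.0593). That scale understates low genes, uses library totals and leaves out TAC library 4, and the cause was not tested. The 3 listed genes whose values were most alike over the 6 libraries were Vcan (the proteoglycan versican), Glipr2 and Mfap4 (a microfibril protein), with root mean square differences of 0.70, 0.73 and 0.75 on the log2 scale. Their own log2 fold changes were -2.34, -2.39 and -2.72.

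Tnc encodes tenascin-C, which in adult muscle is found mainly at the myotendinous junction and after injury. Its normalized counts were 73.2, 82.9 and 144 in sham muscle and 48.4, 21.5 and 41.1 in TAC muscle. The groups did not overlap, with sham library 3 the highest. TAC muscle was lower by a log2 fold change of -1.42 (SE 0.39), with an adjusted p of 0.0258 in edgeR's test. This call was lost when sham library 1, 2 or 3 or TAC library 4 was left out, with adjusted p-values of 0.0581, 0.0577, 0.107 and 0.0523. It was also lost in the libraries numbered 1 and 2 with and without the replicate block (adjusted p = 0.0565 and 0.122) and with limma on log2(RPKM + 1) (adjusted p = 0.0792).

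Tnxb encodes tenascin-X, which binds fibrillar collagen in loose connective tissue. Its normalized counts were 235, 198 and 220 in sham muscle and 137, 147 and 421 in TAC muscle. TAC libraries 1 and 2 lay below the 3 sham libraries and TAC library 4 lay above them. For Tnxb the log2 fold change was 0.11 (SE 0.43, adjusted p = 0.869 in edgeR's test), and without TAC library 4 it was -0.71 (adjusted p = 0.0601). With library totals, which TAC library 4 does not have, it was -1.27 (adjusted p = 0.0164 in edgeR's test). The scaling and the missing library cannot be told apart in that value.

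Spp1 encodes osteopontin, a secreted phosphoprotein of macrophages and bone cells that binds integrins and CD44. Its normalized counts were 48.8, 29.3 and 49.5 in sham muscle and 22.3, 4.89 and 18.0 in TAC muscle, from raw counts of 5 to 60. The groups did not overlap, and TAC library 2 was the lowest. Spp1 had a log2 fold change of -1.49 (SE 0.51), and at an adjusted p of 0.0576 it did not pass edgeR's test. It passed with DESeq2 (adjusted p = 0.0362) and with library totals (adjusted p = 0.0333). Leaving out TAC library 1 also brought it past the threshold, with an adjusted p of 0.0488.

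Sparc encodes a collagen-binding glycoprotein needed for collagen assembly. Its normalized counts were 4071, 3755 and 4525 in sham muscle and 3339, 2746 and 3773 in TAC muscle. TAC library 4 lay just above sham library 2, so that the groups overlapped. Sparc had a log2 fold change of -0.33 (SE 0.20, adjusted p = 0.255 in edgeR's test), and with library totals it was -1.08 (adjusted p = 0.0127).

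**Figure D1:**
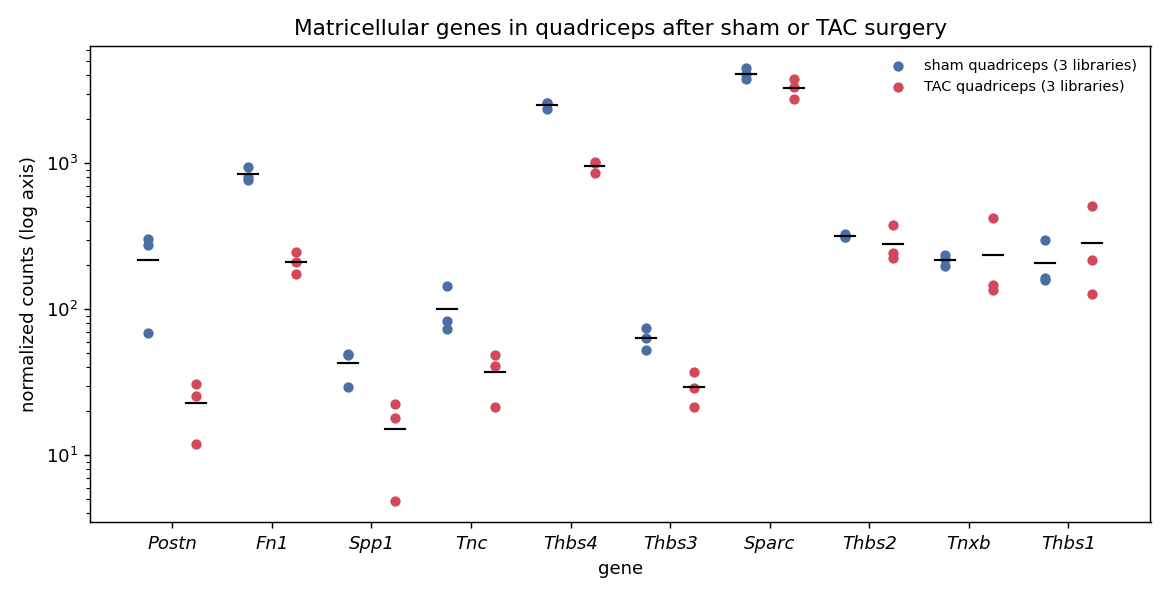
Normalized counts (log axis) of the 10 genes in 3 sham and 3 TAC quadriceps libraries, ordered by log2 fold change, with 1 point for each library and a black line at each group mean. Postn, Fn1, Spp1, Tnc, Thbs4 and Thbs3 have all TAC points below all sham points, and the groups overlap for Sparc, Thbs2, Tnxb and Thbs1.

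Thbs1 and Thbs2 encode the trimeric thrombospondins, which bind CD36 and CD47, inhibit angiogenesis and, for Thbs1, activate latent TGF-beta. Normalized counts of Thbs1 were 164, 158 and 297 in sham muscle and 507, 217 and 128 in TAC muscle. The TAC libraries spanned the sham range on both sides, with TAC library 1 the highest of all 6. Thbs1 had a log2 fold change of 0.47 (SE 0.50, adjusted p = 0.512 in edgeR's test), and without TAC library 1 this was -0.32 (adjusted p = 0.556). Normalized counts of Thbs2 were 311, 328 and 315 in sham muscle and 378, 224 and 244 in TAC muscle. The sham libraries lay within a narrow range, with TAC library 1 above it and TAC libraries 2 and 4 below it. For Thbs2 the log2 fold change was -0.17 (SE 0.26, adjusted p = 0.642 in edgeR's test, 95% interval -0.77 to 0.43). Listed genes with values like those of Thbs1 over the 6 libraries included AY074887 and Cntf (ciliary neurotrophic factor), with root mean square differences of 0.23 and 0.36, and neither passed edgeR's test.

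Thbs3 and Thbs4 encode pentameric thrombospondins. Thbs4 protein is deposited at the myotendinous junction and takes part in the attachment of muscle to matrix. Normalized counts of Thbs4 were 2337, 2572 and 2604 in sham muscle and 1025, 997 and 864 in TAC muscle. Both groups were narrow and they lay far apart. Thbs4 fell, with a log2 fold change of -1.38 (SE 0.18) and an adjusted p of 0.00288 in edgeR's test, and it ranged from -1.50 to -1.35 as each library was left out. Normalized counts of Thbs3 were 63.4, 52.5 and 74.2 in sham muscle and 21.3, 37.2 and 29.0 in TAC muscle. These groups did not overlap either, at counts far lower than those of Thbs4. Thbs3 fell with a log2 fold change of -1.11 (SE 0.31) and an adjusted p of 0.0282 in edgeR's test. That call was lost when any 1 sham library or TAC library 1 was left out, with adjusted p-values from 0.0539 to 0.115, and in the libraries numbered 1 and 2 with and without the replicate block (0.137 and 0.158).

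Fn1 encodes fibronectin, the matrix glycoprotein onto which collagen and several matricellular proteins assemble. Its normalized counts were 941, 769 and 811 in sham muscle and 175, 248 and 210 in TAC muscle. The groups lay far apart, and no library stood away from its group. Fn1 fell with a log2 fold change of -1.99 (SE 0.23), or 3.98-fold lower, and an adjusted p of 0.00162 in edgeR's test. It ranged from -2.12 to -1.94 as each library was left out.

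The other genes of these pathways were taken from lists of 67 symbols, of which 24 are in the TAC table and all 24 were tested. Of these, 8 fell and 1 rose, beside the 11.9% and 17.7% of all genes tested. Among the matrix proteins that matricellular proteins bind, 7 of 12 fell and 0 rose. Type I and III collagens were the lowest: the log2 fold change was -3.95 (SE 0.33) for Col3a1, -3.31 (SE 0.29) for Col1a1 and -2.51 (SE 0.24) for Col1a2, with adjusted p-values of 0.000557, 0.000557 and 0.000812 in edgeR's test. The others that fell were Vcan (-2.34), Col6a1 (-1.45), Col12a1 (-1.03) and Col5a1 (-1.01), and Dcn, Lox, Fbln1, Fbln2 and Bmp1 did not pass. In the SPARC family, Fstl1 (follistatin-like 1) fell with a log2 fold change of -1.44, and Spock2, which encodes a proteoglycan, rose with one of 1.99 (SE 0.50, adjusted p = 0.0206 in edgeR's test). The 2 listed paralogs (Comp and Tgfbi), the 2 receptors (Cd47 and Itga4) and, of the TGF-beta axis, Ltbp1, Tgfb2 and Tgfb3 did not pass edgeR's test, and no gene of the CCN family is in the TAC table.

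Markers of other cell types differed between the same libraries, and in whole muscle fewer cells of a type and less RNA per cell cannot be told apart. Of the fibroblast markers, 7 of 9 are in the table and 6 fell (all but Dcn). Summed normalized counts of all 7 were 11084 to 14491 in sham and 6628 to 9808 in TAC muscle. Within these sums, Dcn alone was at 5974 to 7443 in sham and 5382 to 8623 in TAC muscle. Both macrophage markers in the table (Lyz2 and C1qa, of 6) fell, with sums of 548 to 780 in sham and 237 to 330 in TAC muscle. Of the tendon markers, 2 of 5 are in the table, and Chad fell while Fmod did not pass (adjusted p = 0.066), with sums of 784 to 1094 and 498 to 631. Both endothelial markers in the table (Pecam1 and Vwf, of 5) rose, with sums of 917 to 1048 and 1504 to 1589, and none of the 3 adipocyte markers passed edgeR's test. No smooth muscle, Schwann cell or satellite cell marker is in the table. The part of these cell types in the values of the matricellular genes was not tested. Col1a1, Col1a2, Col3a1 and Dcn belong to both the fibroblast markers and the matrix partners.

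The second comparison, of sham quadriceps with sham heart, asks which of these genes are more abundant in skeletal muscle than in the heart. With the same test over 24280 transcripts, 3 of the 10 genes were higher in quadriceps (Thbs4, Tnc and Spp1), 4 were lower (Postn, Tnxb, Sparc and Thbs3), and Thbs1, Thbs2 and Fn1 did not pass. Of all transcripts tested, 32.2% were called higher and 34.4% lower. The groups did not overlap for 8 of the 10 genes, against 72.6% of all transcripts, so that this count is near the background. The median log2 fold change of the 10 was -0.19, against -0.06 over all transcripts, and with library totals these were -0.93 and -0.80. Over all transcripts, library totals changed the split of 7828 higher and 8354 lower calls to 3241 and 15203. Among the 10 genes they left 3 higher and made 6 lower, adding Thbs2 and Fn1.

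Thbs4 differed most. Its CPM values (TMM-scaled counts relative to library size) were 6.57, 8.45 and 6.68 in heart libraries 1 to 3 and 106, 106 and 107 in sham quadriceps libraries 1 to 3. The quadriceps libraries were nearly equal and lay far above the heart libraries. The log2 fold change was 3.88 (SE 0.13), or 14.7-fold higher in quadriceps, with an adjusted p of 1.44e-08 in edgeR's test.

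Tnc was at 0.42, 0.855 and 0.559 CPM in heart and 3.31, 3.43 and 5.93 CPM in quadriceps. Every quadriceps library lay above every heart library. Tnc had a log2 fold change of 2.75 (SE 0.32) between the tissues, with an adjusted p of 4.97e-05 in edgeR's test. Spp1 was at 0.462, 0.636 and 0.186 CPM in heart and 2.21, 1.21 and 2.03 CPM in quadriceps. Its groups were also apart, at raw counts in heart of only 22, 32 and 8. Spp1 had one of 2.05 (SE 0.40, adjusted p = 0.00134 in edgeR's test).

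Among the genes lower in quadriceps, Postn was at 28.8, 37.7 and 26.7 CPM in heart and 13.8, 2.84 and 11.3 CPM in quadriceps, and sham quadriceps library 2 was again the lowest. Its log2 fold change was -1.74 (SE 0.42, adjusted p = 0.00499 in edgeR's test). Tnxb was at 22.4, 21.9 and 20.9 CPM in heart and 10.6, 8.19 and 9.04 CPM in quadriceps. Its groups were narrow and apart, with a log2 fold change of -1.22 (SE 0.12, adjusted p = 1.48e-05). Sparc was at 321, 336 and 326 CPM in heart and 184, 155 and 186 CPM in quadriceps. Its log2 fold change of -0.90 (SE 0.11) had an adjusted p of 7.86e-05 in the same edgeR test, with no overlap of the groups.

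Thbs3 was at 4.09, 3.92 and 3.31 CPM in heart and 2.87, 2.17 and 3.05 CPM in quadriceps, close together but without overlap. Its log2 fold change of -0.49 (SE 0.17, adjusted p = 0.0301) did not hold without heart library 1 or 2 or quadriceps library 2, at adjusted p-values of 0.10, 0.0884 and 0.0856 in edgeR's test. DESeq2 gave an adjusted p of 0.0581. Thbs2 was at 16.6, 15.1 and 15.6 CPM in heart and 14.0, 13.6 and 12.9 CPM in quadriceps, with a log2 fold change of -0.22 (95% interval -0.44 to -0.0039) and an adjusted p of 0.0674. Thbs1 spanned 3.66 to 9.51 CPM in heart and 6.52 to 12.2 CPM in quadriceps, with a log2 fold change of 0.39 (SE 0.33, adjusted p = 0.325 in edgeR's test) that was -0.36 with library totals. Fn1 spanned 35.4 to 45.9 CPM in heart and 31.8 to 42.6 CPM in quadriceps, with a log2 fold change of -0.16 (95% interval -0.48 to 0.17, adjusted p = 0.356).

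**Figure D2:**
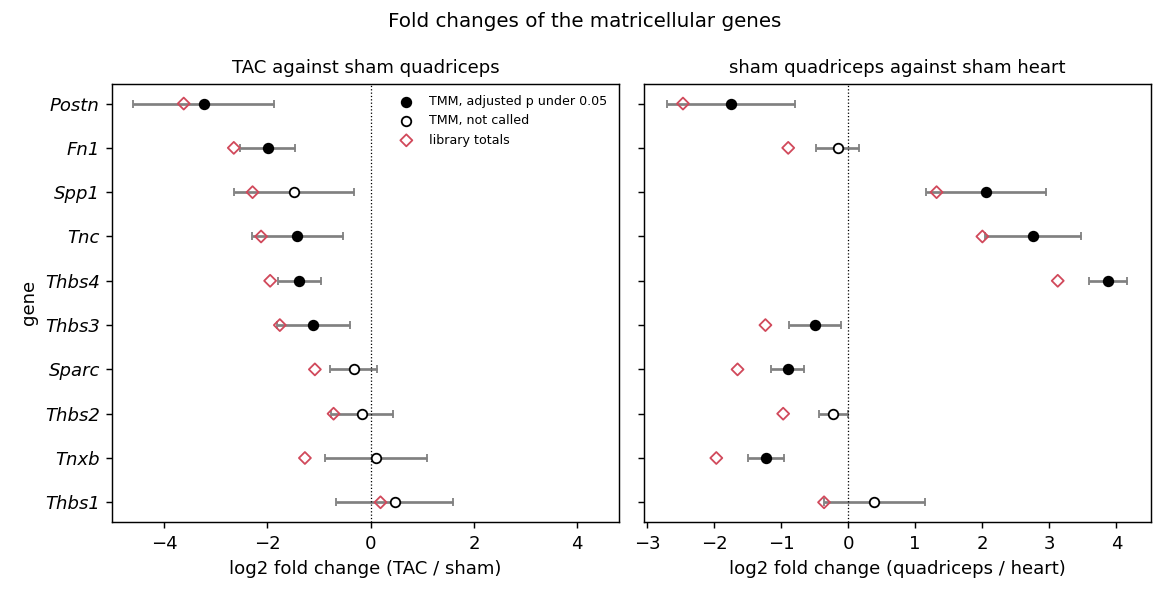
Log2 fold changes of the 10 genes, TAC against sham quadriceps at left and sham quadriceps against sham heart at right, with TMM (circles, filled where the adjusted p is under 0.05, bars for 95% intervals) and with library totals (diamonds, 5 libraries at left). Thbs4, Tnc and Spp1 lie to the left of 0 in the first panel and to the right in the second, and each diamond lies to the left of its circle.

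Tnc, Spp1 and Thbs4, the 3 genes that were higher in quadriceps than in heart, had log2 fold changes of -1.42, -1.49 and -1.38 after TAC, and the first and last of these passed edgeR's test. Postn and Thbs3 were lower in quadriceps than in heart and also fell after TAC. Fn1 fell after TAC and did not pass between the tissues. Both comparisons contain the sham quadriceps libraries, so these pairs of values are not independent.

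Between the tissues, the markers of other cell types also differed. Tendon markers were higher in quadriceps for 4 of 5 genes (all but Scx), with summed CPM of 51.3 to 56.3 against 4.12 to 8.78 in heart. Fibroblast markers were lower for 5 of 9 genes, with sums of 475 to 677 against 690 to 790, and among them Tcf21 was at 0 counts in all 3 quadriceps libraries. Macrophage markers were lower for 5 of 6 genes and endothelial markers for 5 of 5, and all 4 adipocyte markers were higher. Their part in the tissue differences of the matricellular genes was not tested.

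Of the 67 listed pathway genes, 54 were tested in this comparison, and 13 were higher and 29 lower in quadriceps. Of all transcripts tested, 32.2% were higher and 34.4% lower, and the counts of each list below stand beside these shares. Receptors differed in both directions, with 5 higher and 10 lower of 19. The integrin subunit gene Itga4 was at 20.8 ± 2.54 CPM in quadriceps and 2.01 ± 0.216 in heart (SD, n = 3 each), a log2 fold change of 3.37, while Itga9, whose product binds tenascin-C and osteopontin, was at 2.90 ± 0.678 and 49.1 ± 6.70 CPM, a log2 fold change of -4.06. In the TGF-beta axis 4 genes were higher and 4 lower of 10. Smad3, a TGF-beta signal transducer, was at 87.0 ± 32.2 CPM in quadriceps and 14.2 ± 1.11 in heart (log2 fold change 2.62), and the ligand gene Tgfb1 was at 1.12 ± 0.190 and 8.84 ± 0.792 (log2 fold change -2.95). Of the 12 matrix partners, 2 were higher and 7 lower. The higher ones were Col12a1 and Lox, with log2 fold changes of 2.43 and 2.40. Among the lower, Fbln1 was at 1.62 ± 0.0961 CPM in quadriceps and 19.9 ± 2.99 in heart (log2 fold change -3.62). Itga4, Itga9, Smad3, Tgfb1 and Fbln1 had adjusted p-values of at most 9.87e-06 in edgeR's test. Of the 3 paralogs tested, 2 were higher and 0 lower. Dmp1, an osteopontin relative of bone, was counted 0, 3 and 1 times in the heart libraries and 32, 17 and 14 times in the quadriceps libraries, at least 13.9-fold higher against a floor of 3 counts per heart library. In the CCN family 4 of 5 tested genes were lower, among them Ctgf at 12.9 CPM in quadriceps and 51.7 in heart, and in the SPARC family 4 of 5 were lower, among them Sparcl1 at -1.65.

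Levels between the genes can be compared per transcript length, by the deposited RPKM values, which are scaled to library totals. In heart, Sparc was at 162 RPKM (SD 5.51, n = 3), followed by Postn at 13.0, Fn1 at 6.69, Thbs2 at 3.47, Tnxb at 2.96, Thbs4 at 2.96, Thbs3 at 1.55, Thbs1 at 1.46, Spp1 at 0.369 and Tnc at 0.112. Neighbors in this order had ranges that did not overlap, except Tnxb with Thbs4 and Thbs3 with Thbs1. In sham quadriceps Sparc was again first at 51.6 RPKM (SD 7.93), and Thbs4 was second at 25.8 (SD 1.74). Fn1 (3.60), Postn (2.37) and Thbs2 (1.77) followed, with ranges that overlapped from each to the next. Thbs1 (1.15), Spp1 (0.940), Tnxb (0.756), Thbs3 (0.662) and Tnc (0.459) came last, again each overlapping the next.

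TAC libraries 1 and 2, the ones with usable RPKM values, kept Sparc first at 27.0 and 21.8 RPKM and Thbs4 second at 6.85 and 6.54. Thbs1 followed at 1.85 and 0.778, overlapping Thbs2, and Fn1 was at 0.480 and 0.665. The sum over the 10 genes was 190, 204 and 190 RPKM in heart, 101, 75.3 and 91.4 in sham quadriceps and 38.6 and 31.4 in TAC quadriceps. Sparc made up 82.3% to 85.0% of this sum in heart, 56.9% to 58.6% in sham quadriceps and 69.3% and 69.8% in TAC quadriceps. Thbs4 made up 1.40% to 1.71%, 27.5% to 32.2%, and 17.7% and 20.8% in the same order. The 3 groups did not overlap in the sum or in either share. The sums are scaled to library totals. On that scale the median log2 fold change was -0.63 over all listed genes after TAC. It was -0.80 over all transcripts between the tissues.

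**Figure D3:**
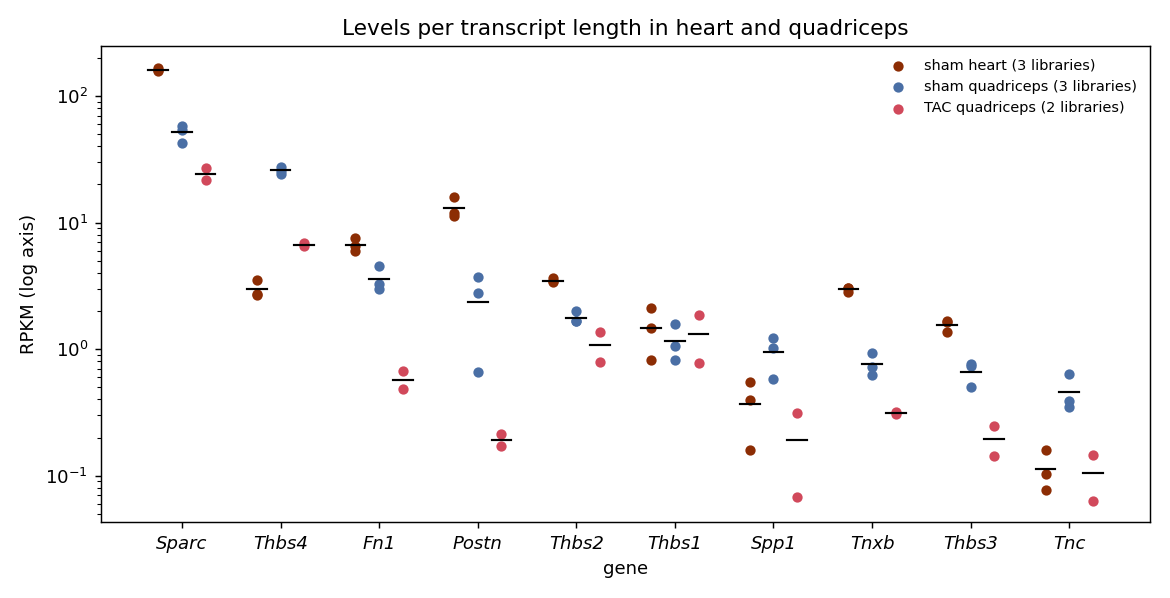
RPKM (log axis) of the 10 genes in sham heart, sham quadriceps (3 libraries each) and TAC quadriceps (2 libraries), with 1 point for each library and a black line at each group mean. Sparc is highest in every group, and Thbs4 is second in quadriceps at 25.8 RPKM in sham, against 2.96 in heart.

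The heart table lists several transcripts for some of the genes, 26 in all, and reads are counted on each transcript that contains them. For Postn, Spp1, Sparc, Thbs1 and Fn1, the genes with more than 1 transcript, the log2 fold changes of the transcripts lay within narrow ranges, such as -1.75 to -1.72 for the 5 of Postn and -0.16 to -0.15 for the 7 of Fn1. The difference in counts between transcripts that differ by 1 internal exon gives the reads on that exon. Among these exons, the 270-base exon of Fn1 is shown because its shares did not overlap between the tissues, and it was chosen after its values were seen. Its length is that of the extra domain A exon of fibronectin, which is included in tissue remodeling and left out of plasma fibronectin. It lies at chr1:71603660-71603929 on the minus strand of GRCm38, within the coding part of the gene.
Fn1 270-base exon: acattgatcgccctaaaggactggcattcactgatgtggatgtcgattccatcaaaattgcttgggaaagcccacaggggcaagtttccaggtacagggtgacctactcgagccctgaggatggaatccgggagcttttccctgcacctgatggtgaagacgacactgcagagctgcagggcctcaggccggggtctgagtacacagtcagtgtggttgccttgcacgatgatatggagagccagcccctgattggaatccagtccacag

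The exon took 14, 11 and 12 counts in heart libraries 1 to 3, of 2209, 1968 and 1544 on the longer transcript, and 1, 0 and 1 counts in sham quadriceps libraries 1 to 3, of 1166, 765 and 593. The shares were 0.634% (exact 95% interval 0.347% to 1.06%), 0.559% (0.279% to 0.998%) and 0.777% (0.402% to 1.35%) in heart. In quadriceps they were 0.0858% (0.00217% to 0.477%), 0% (0% to 0.481%) and 0.169% (0.00427% to 0.936%), and a floor of 3 counts would be 0.392% in the library at 0. All 3 heart shares lay above all 3 quadriceps shares, but the intervals of single libraries overlap between the tissues and cover counting error only. The exon makes up 3.33% of the transcript's length, above the share of counts in every library. Since reads across its edges may be left out, this gives no level of inclusion. Another pair of transcripts that differ by this exon gave 12, 9 and 12 counts in heart. The 273-base exon of Fn1, of the length of extra domain B, was counted 0, 3 and 0 times in heart and 0 times in each quadriceps library, so that no difference was detectable at this depth. In Postn, an 84-base exon was hit by 30, 58 and 35 reads in the heart libraries and by 18, 6 and 4 in the quadriceps libraries, with shares of 2.14% to 2.96% and 1.96% to 8.11% that overlapped. The TAC table gives 1 transcript of each gene, so exons after TAC were not analysed here.

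**Figure D4:**
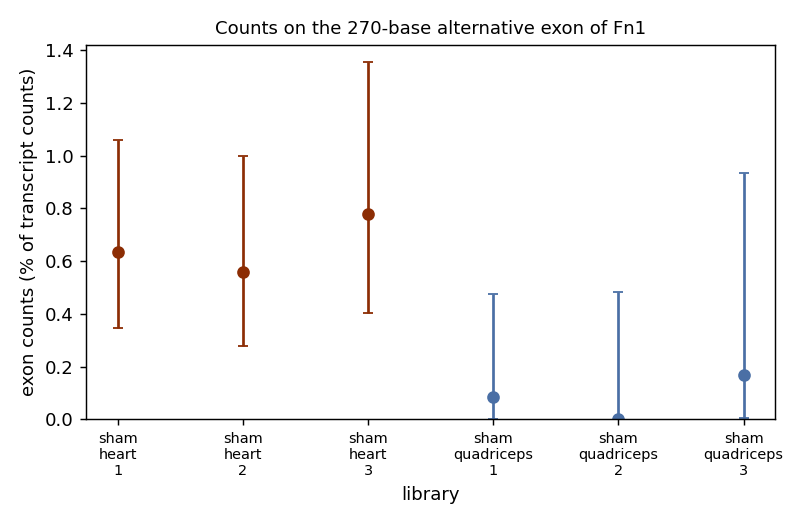
Share of Fn1 transcript counts on the 270-base exon in each sham library, with exact 95% binomial intervals. The 3 heart libraries lie at 0.559% to 0.777% and the 3 quadriceps libraries at 0% to 0.169%, with intervals that overlap.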

How the data were processed

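RNA was isolated from quadriceps and heart and sequenced as single-end reads of 50 bases. After trimming (Trim Galore) and alignment to mm10 (STAR), the authors counted reads with Rsubread, and the deposited counts are raw, 1 row for each RefSeq transcript. The deposited RPKM values scale these counts by transcript length and library total. Columns of the authors' fold changes, test statistics and p-values were not used, nor was 1 column of a single library (the RPKM values of TAC library 4). Library totals sum over transcripts, and a read shared by several transcripts enters each time.

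Transcripts that exceeded 5 counts in 2 libraries or more entered edgeR 4.0.16 in R 4.3.3 (quasi-likelihood test, TMM, Benjamini-Hochberg adjustment over all rows, called at an adjusted p under 0.05). Normalized counts are counts divided by TMM-scaled library size relative to its mean. Labels number the separate libraries of a group, which the study calls biological replicates. The p-values weigh the group difference against the spread between these libraries. An exact permutation test of 3 libraries against 3 cannot go below p = 0.1, so none was used. The procedure was tested on simulated data. Alternatives were DESeq2 1.42.0, limma 3.58.1 on log2(RPKM + pseudocount) with a pseudocount of 0.5, 1 or 0.1, library totals, other count filters, the replicate number as a block, 1 transcript per gene and leaving out each library. Replicates differed by more than sampling noise (chi-square per degree of freedom at least 7.10).

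The members, gene lists and markers were chosen with earlier results of these data known. The genes named are the 10 members, the 3 most like the members with the largest fall and rise, and of the pathway lists the 3 largest rises and falls among those called in each comparison. Not every gene so selected is reported here. The other pathway and marker genes named complete a count or describe a list and were picked with their values in view. Likeness is the root mean square difference of log2(normalized count + 1) after subtraction of the sham mean. Python 3.11.15 with pandas 2.3.3, numpy 2.4.6, scipy 1.17.1 and matplotlib 3.10.9 was used for the rest.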

Additional observations from a re-analysis of the deposited data

How the results depend on the processing

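Library totals and limma with a pseudocount of 0.5 or 0.1 each called 8 of the 10 genes lower after TAC in place of 5. No alternative called any of the 10 higher in that comparison. Over all 586 genes, the same settings called 180, 188 and 192 lower and 20, 14 and 16 higher, in place of 70 and 104. A pseudocount of 1 called 158 lower and 12 higher over all genes. Of the 10 genes it called 5 lower, without Postn and Tnc (adjusted p = 0.0593 and 0.0792 in limma's test) and with Spp1 and Sparc (0.0440 and 0.0188). The 4 quadriceps libraries numbered 1 and 2 gave 3 without a block and 4 with the replicate block, and leaving out 1 library gave 3 to 5. Over all genes, the libraries numbered 1 and 2 gave 39 lower and 49 higher without the block. With the block they gave 62 lower and 56 higher. Leaving out 1 library gave 35 to 102 lower and 25 to 113 higher over all genes. The log2 fold change of Tnxb reversed to -1.27 with library totals, to -0.62, -0.42 and -1.04 with pseudocounts of 0.5, 1 and 0.1, and to -0.61 for the libraries numbered 1 and 2 with or without the block. It ran from -0.71 to 0.36 and that of Thbs1 from -0.32 to 0.82 as libraries were left out. Between the tissues, Thbs1 reversed to -0.36 with library totals and to -0.22, -0.18 and -0.28 with the 3 pseudocounts. For genes higher in quadriceps, the study's criterion was a p under 0.05, taken here as unadjusted, and a log2 fold change above 2. Mirrored here to the lower direction, which the study did not use, it called 0 genes lower in quadriceps in place of 4, by its threshold of size. The cause of the other changes was not tested, but library totals, RPKM and the libraries numbered 1 and 2 leave out TAC library 4.

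Single log2 fold changes kept direction and side of the threshold in 126 recalculations for TAC and 142 for the tissues, lost a call in 14 and 4, gained one in 11 and 9, and reversed in 8 and 4. Correlations between libraries were taken over log2 values after each gene's group mean was subtracted. Same-numbered libraries correlated at -0.17 and 0.08 in the TAC comparison and -0.11 to 0.01 between the tissues. Differently numbered ones ran from -0.29 to 0.30 and from -0.05 to 0.09. Such deviations cancel within a group, so these correlations are not independent. With so few pairs, whether the numbers pair animals cannot be told. The replicate block changed no member call between the tissues. Depth limits Spp1 most, with raw counts down to 5 after TAC and 8 in heart.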
